A study of Mus musculus with 6 samples.

Results

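The genes of mitosis and cytokinesis were followed in splenic CD11b+Gr-1high cells, a granulocytic population. The set is a fixed list of 52 genes, chosen with earlier results of these data known. Counts of its members beside the shares of all genes are therefore a description. Its members are all probes that the array annotation pairs with 1 of these symbols. A probe was found for 49 of the 52 genes, of 19057 genes named on the array, and these 49 genes have 93 of the 45281 probes. Ccnb1, Mki67 and Tacc3 had no probe under their symbol and were not analysed here.

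All mice were female BALB/c mice of 6 to 8 weeks. 4T1-TB mice carried tumors of over 1000 mm3 that grew from 50000 cells of 4T1, a BALB/c mammary carcinoma line, placed in the abdominal mammary gland. G-CSF mice received 10 µg of recombinant mouse G-CSF a day under the skin on 5 consecutive days and had no tumor. WT mice were controls without a tumor. The cells were sorted to over 98% purity, and RNA of 5000000 cells per sample was hybridized to Illumina MouseWG-6 v2 arrays, 2 biologic replicates per group. The cells came from 2 independent experiments, and the labels do not say which samples belonged to which.

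A cell in mitosis condenses its chromosomes, attaches them to a bipolar spindle through kinetochores, separates the sister chromatids once the anaphase-promoting complex is active, and cleaves its cytoplasm in cytokinesis. Most of these genes are transcribed late in the cell cycle, so their RNA is plentiful in dividing cells and scarce in resting ones. In the granulocyte lineage, promyelocytes and myelocytes divide, and metamyelocytes, band cells and segmented neutrophils do not.

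Many of these genes share promoter elements. The cell cycle genes homology region, TTTGAA or TTCGAA, is known as a site of the DREAM and MMB complexes, and the CCAAT box as a site of NF-Y. RefSeq windows of GRCm38.p6 from 250 bases before to 50 after the start were found for 43 of the 52 genes. On either strand, TTTGAA or TTCGAA was present for 34 of these 43 genes (79.1%), against 21.7% of all 27025 genes with a window, and for 19.2% of the 32851 windows. TTTGAA alone was present for 32 (74.4%), against 20.2% of all genes, and CCAAT for 31 (72.1%), against 41.1%. Sites of TTTGAA and CCAAT can share bases, as in Cdca8. The stretches below run from 100 bases before to 25 after the start, 5′ to 3′, with these letters in capitals (TTCAAA and ATTGG are the reverse strand of TTTGAA and CCAAT). The first 5 belong to genes with higher RNA in 4T1-TB than in WT cells and show the element at or near the start in 4 of them, while the stretch of Birc5 holds neither motif.
Prc1, chr7:80294351-80294475, plus strand: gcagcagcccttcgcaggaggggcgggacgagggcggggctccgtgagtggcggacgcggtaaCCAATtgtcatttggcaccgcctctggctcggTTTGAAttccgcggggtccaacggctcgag
Cdc20, chr4:118437319-118437443, minus strand: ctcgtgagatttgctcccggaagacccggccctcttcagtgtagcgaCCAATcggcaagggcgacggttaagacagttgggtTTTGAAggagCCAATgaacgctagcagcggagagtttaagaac
Kif22, chr7:127042396-127042520, minus strand: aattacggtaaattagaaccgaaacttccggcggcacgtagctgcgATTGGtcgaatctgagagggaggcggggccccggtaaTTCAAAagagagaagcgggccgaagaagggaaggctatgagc
Cenpa, chr5:30666786-30666910, plus strand: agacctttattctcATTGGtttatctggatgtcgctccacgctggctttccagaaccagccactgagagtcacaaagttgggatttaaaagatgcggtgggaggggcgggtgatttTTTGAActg
Birc5, chr11:117849137-117849261, plus strand: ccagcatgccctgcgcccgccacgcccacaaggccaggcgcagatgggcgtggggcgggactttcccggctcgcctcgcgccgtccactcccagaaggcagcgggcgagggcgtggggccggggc
The stretches of Top2a and Ube2c are shown because they carry the same motifs although neither gene was detected on any array.
Top2a, chr11:99024165-99024289, minus strand: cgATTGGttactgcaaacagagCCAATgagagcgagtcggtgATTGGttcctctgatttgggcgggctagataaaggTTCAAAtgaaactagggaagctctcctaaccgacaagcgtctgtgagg
Ube2c, chr2:164769829-164769953, plus strand: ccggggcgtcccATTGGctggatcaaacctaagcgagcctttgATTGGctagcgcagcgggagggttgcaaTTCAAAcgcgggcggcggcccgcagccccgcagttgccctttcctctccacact
Of the 11 genes called higher in 4T1-TB cells below, 10 have a window and 9 of them held TTTGAA or TTCGAA. Of the 19 genes detected on 0 arrays, 18 have a window and 15 held it, so both sets carried the motif in most windows. These matches describe letters and are not evidence of binding in these cells.

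Each array gives a normalized log2 intensity per probe and a detection p-value, and detection here means that this p-value was under 0.05. The lowest detected probe of each array lay between 7.03 and 7.10 on the log2 scale, so values near 7 are background. The probe with the highest mean over the 6 arrays stands for a gene with several probes. Between 7421 and 10036 probes were detected per array. Of 13 measured genes of granulocytes 12 were detected on 2 or more arrays, and S100a8, an abundant granulocyte calcium-binding protein, lay between 13.70 and 14.27. The probe of Itgam, which encodes the sort marker CD11b, was at 7.00 and 6.79 in 4T1-TB cells, 6.84 and 7.00 in G-CSF cells and 7.78 and 7.95 in WT cells, and thus was detected on both WT arrays alone. Ly6g has no probe under its symbol and was not analysed here. Of 12 measured erythroid genes, Alas2, the first enzyme of heme synthesis in red cells, was at 11.15 and 6.88 in 4T1-TB cells, 11.12 and 6.93 in G-CSF cells and 6.88 and 6.87 in WT cells. Slc4a1, the anion exchanger of the red cell membrane, was at 11.58 and 6.91, 12.24 and 6.88, and 6.98 and 7.13 in the same order. In all, 6 of the 12 were detected on 2 or more arrays, and Gata1, Car2, Ank1 and Ermap on 0. Replicate 1 of 4T1-TB and of G-CSF therefore stand apart in red cell RNA. Some summaries below are also given without them, while tests of single genes are given with them.

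WT cells had the fewest mitosis genes detected. Of the 49 genes, 4T1-TB cells had 23 and 21 detected, G-CSF cells 21 and 13, and WT cells 7 and 6. The share was 46.9% and 42.9% in 4T1-TB cells, 42.9% and 26.5% in G-CSF cells and 14.3% and 12.2% in WT cells. Over all genes the shares ranged from 25% to 33.4%, so the mitosis genes were above the shares of all genes on both 4T1-TB replicates and G-CSF replicate 1 and below them on the other 3 arrays. G-CSF replicate 1 and 4T1-TB replicate 2 had the same number. By the probe that stands for each gene, 19 genes were detected on 0 arrays, 7 on 1 array and 23 on 2 or more.

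**Figure D1:**
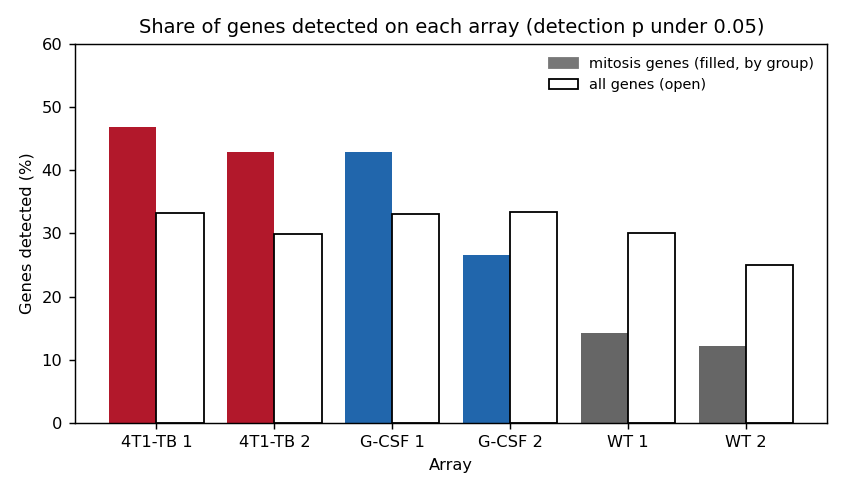
Share of genes detected on each of the 6 arrays (y axis, percent; x axis, array), for the 49 mitosis genes (filled bars, colored by group) and for all 19057 genes (open bars). Filled bars reach 46.9% and 42.9% for 4T1-TB, 42.9% and 26.5% for G-CSF and 14.3% and 12.2% for WT, while open bars stay between 25% and 33.4%.

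A subset of the mitosis genes had more RNA in 4T1-TB cells than in WT cells. With limma, 10 of 49 genes rose at an adjusted p under 0.05 and 0 fell, against 5.41% of all genes that rose and 3.17% that fell. By the criterion of the study's methods, a change of 2-fold or more with an unadjusted P under 0.01, 11 rose and 0 fell, against 3.39% and 2.35% of all genes. The eleventh is Aurka, which did not pass the adjusted test. At an unadjusted P under 0.05, 17 were higher, against 13.6% of all genes, and 1 was lower. Of 19057 genes 3969 had such a P, 2583 of them higher and the rest lower. Both 4T1-TB arrays lay above both WT arrays for 22 of 49 genes, against 29.3% of all genes, and below them for 8, against 20.7%. The median log2 fold change over all 49 genes was 0.06, against 0.01 over all genes, and 26 of the 49 were detected on no more than 1 array. Because these are bulk samples of sorted cells, more dividing cells and more RNA per dividing cell cannot be told apart.

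**Figure D2:**
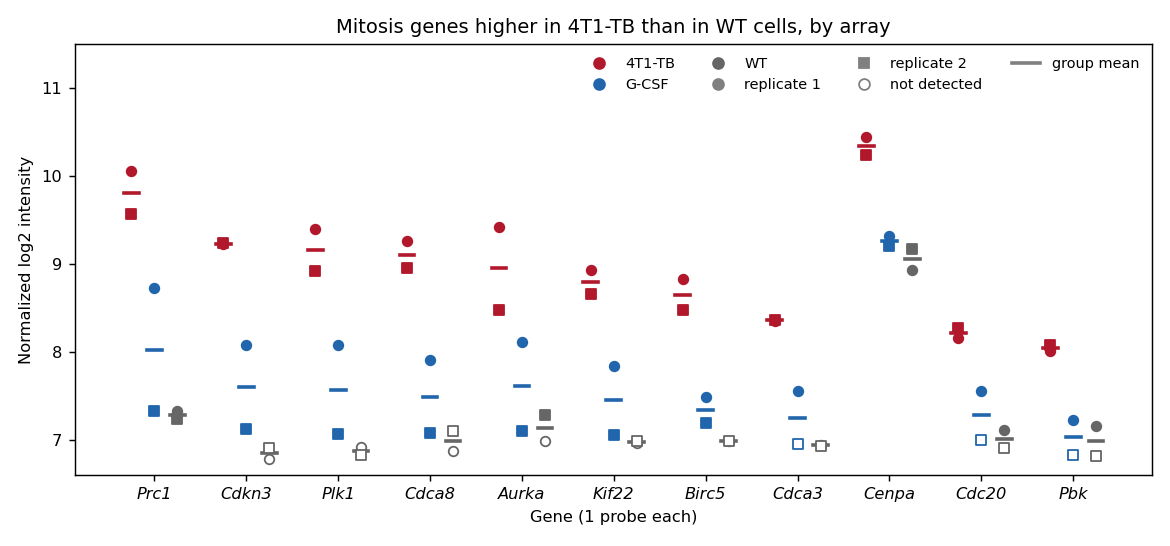
Normalized log2 intensity (y axis) on each array for the 11 genes called higher in 4T1-TB than in WT cells (x axis), with 4T1-TB, G-CSF and WT from left to right, circles for replicate 1, squares for replicate 2, bars for group means and open symbols where the probe was not detected. For each gene both 4T1-TB arrays lie above all other arrays, and Aurka passed the 2-fold criterion but not the adjusted test (adjusted p = 0.0877).

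Among the mitotic kinases and their regulators, 3 of 13 measured genes rose by the adjusted test. Plk1, the polo-like kinase that drives mitotic entry and spindle assembly, had log2 intensities of 9.39 and 8.92 in 4T1-TB cells, 8.08 and 7.06 in G-CSF cells and 6.92 and 6.83 in WT cells. Both WT values are below detection, and the gene was at least 4.24-fold higher in 4T1-TB than in WT cells (log2 fold change 2.28, SE 0.34, adjusted p = 0.0213). Here and below, "at least" sets the lowest detected signal of an array in place of a lower value. Cdkn3, a phosphatase that acts on cyclin-dependent kinases, was at 9.22 and 9.24 in 4T1-TB cells, 8.08 and 7.12 in G-CSF cells and 6.78 and 6.91 in WT cells. It was at least 4.46-fold higher in 4T1-TB than in WT cells (2.38, SE 0.30, adjusted p = 0.0118), and its 2 tumor arrays were nearly equal.
Pbk, a mitotic kinase also called TOPK, was at 8.01 and 8.08 in 4T1-TB cells, 7.22 and 6.83 in G-CSF cells and 7.16 and 6.81 in WT cells, a change of 2.09-fold between 4T1-TB and WT (1.06, SE 0.16, adjusted p = 0.0235). Pbk, Aurka and Cdc20 were each detected on 1 of the 2 WT arrays, so their folds rest in part on a WT value below detection, and that of Pbk is close to the 2-fold limit. Aurka, the Aurora kinase of the centrosome, was at 9.42 and 8.48 in 4T1-TB cells, 8.11 and 7.10 in G-CSF cells and 6.99 and 7.28 in WT cells. Its log2 fold change of 1.82 against WT (SE 0.43) met the 2-fold criterion with an adjusted p of 0.0877, and its 4T1-TB arrays differed more than those of the other genes called. The other 9 genes of this group did not pass either rule. Bub1b, which encodes the checkpoint kinase BubR1, had 7.46 and 7.17 in 4T1-TB cells, 7.12 and 6.98 in G-CSF cells and 6.85 and 6.91 in WT cells (log2 fold change against WT 0.44, adjusted p = 0.107). Cdk1, the central kinase of mitosis, stayed between 6.85 and 7.06 by a probe detected on 4T1-TB replicate 2 alone, and a second probe of Cdk1 was detected on WT replicate 2 alone, at 7.12. Ccna2, a cyclin partner of Cdk1 and Cdk2, was detected only on the G-CSF arrays, with 6.80 and 6.84 in 4T1-TB cells, 7.07 and 7.07 in G-CSF cells and 6.94 and 6.93 in WT cells. Ccnb2, Cks1b, Cks2 and Bub1 were not detected on any array.

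In the chromosomal passenger complex, which corrects the attachment of chromosomes and steers cleavage, 2 of 4 genes rose. Birc5, which encodes survivin, was at 8.83 and 8.47 in 4T1-TB cells, 7.48 and 7.19 in G-CSF cells and 6.98 on each of the 2 WT arrays. It was at least 2.99-fold higher in 4T1-TB than in WT cells (log2 fold change 1.67, SE 0.15, adjusted p = 0.00406). Cdca8, which encodes borealin, was at 9.26 and 8.95 in 4T1-TB cells, 7.91 and 7.07 in G-CSF cells and 6.87 and 7.10 in WT cells, at least 4.10-fold higher in 4T1-TB than in WT (2.12, SE 0.28, adjusted p = 0.014). The groups do not overlap for Birc5. For Cdca8, G-CSF replicate 2 lies within the WT values. Incenp, the scaffold of the complex, had 7.57 and 7.21 in 4T1-TB cells, 7.05 and 6.92 in G-CSF cells and 6.95 and 6.99 in WT cells (0.42, adjusted p = 0.181), and Aurkb, its kinase, was detected on 4T1-TB replicate 1 alone, at 7.19.

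Of 9 genes of the kinetochore, the centromere and the spindle checkpoint, 1 rose. Cenpa, the histone variant that marks centromeres, was detected on all 6 arrays, with 10.44 and 10.24 in 4T1-TB cells, 9.32 and 9.20 in G-CSF cells and 8.93 and 9.17 in WT cells. It was 2.44-fold higher in 4T1-TB than in WT cells (log2 fold change 1.29, SE 0.11, adjusted p = 0.00399). Mad2l1, the checkpoint protein Mad2, had 7.67 and 7.46 in 4T1-TB cells, 7.29 and 7.02 in G-CSF cells and 7.10 and 6.98 in WT cells (0.52, adjusted p = 0.0787). Ndc80, a microtubule-binding kinetochore subunit, had a log2 fold change of 0.31 (adjusted p = 0.216) by a probe detected on the 2 4T1-TB arrays alone, and -0.13 by a second probe of Ndc80, detected on WT replicate 2 alone. Its partner genes Spc24 and Spc25 had 0.12 and 0.17, and Nuf2, Cenpe and Cenpf were not detected on any array.

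Of 4 genes of the anaphase-promoting complex and mitotic exit, 2 rose. Cdc20, which activates the complex at the end of metaphase, was at 8.16 and 8.27 in 4T1-TB cells, 7.55 and 7.00 in G-CSF cells and 7.11 and 6.91 in WT cells, 2.31-fold higher in 4T1-TB than in WT (log2 fold change 1.21, SE 0.18, adjusted p = 0.0223). Cdca3, a substrate of the complex that promotes mitotic entry, was at 8.35 and 8.36 in 4T1-TB cells, 7.55 and 6.95 in G-CSF cells and 6.94 and 6.93 in WT cells, at least 2.44-fold higher in 4T1-TB than in WT (1.42, SE 0.19, adjusted p = 0.0142). In both genes G-CSF replicate 1 lay between the tumor and the WT arrays, and G-CSF replicate 2 lay close to a WT array. Ube2c, the ubiquitin-conjugating enzyme of the complex, and Cdca5, sororin, were not detected on any array.

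Spindle and cleavage genes gave 1 call each. Kif22, a chromokinesin that moves chromosome arms, was at 8.93 and 8.66 in 4T1-TB cells, 7.84 and 7.05 in G-CSF cells and 6.96 and 6.99 in WT cells, at least 3.30-fold higher in 4T1-TB than in WT (log2 fold change 1.82, SE 0.25, adjusted p = 0.0171). Prc1, which bundles the microtubules of the central spindle, had the largest log2 fold change of the 49 genes, with 10.05 and 9.57 in 4T1-TB cells, 8.72 and 7.32 in G-CSF cells and 7.33 and 7.23 in WT cells (2.53, SE 0.45, adjusted p = 0.0361, 5.77-fold). Its 4T1-TB and WT arrays are far apart, while the 2 G-CSF arrays span much of the distance between them.
Nusap1, a microtubule-binding spindle protein, had 8.35 and 7.79 in 4T1-TB cells, 8.0 and 6.88 in G-CSF cells and 6.93 and 7.01 in WT cells (1.10, adjusted p = 0.252), and here G-CSF replicate 1 was above 4T1-TB replicate 2. Anln, anillin of the contractile ring, had 8.54 and 7.78, 7.73 and 6.91, and 7.15 and 7.15 in the same order (1.02, adjusted p = 0.232). Kif23, the kinesin of the central spindle, was detected on all 6 arrays, with 9.27 and 9.30 in 4T1-TB cells, 9.27 and 8.55 in G-CSF cells and 9.80 and 9.61 in WT cells, and had negative log2 fold changes of -0.42 in 4T1-TB and -0.79 in G-CSF against WT that did not pass (adjusted p = 0.545 and 0.177). Its 2 other detected probes had -0.24 and -0.10 in 4T1-TB against WT. Racgap1, the partner of Kif23 in centralspindlin, and Ect2, which that complex recruits, were not detected on any array. The condensin subunits and Top2a, which shape mitotic chromosomes, were detected on at most 2 arrays each, with log2 fold changes against WT between -0.13 and 0.05 in 4T1-TB cells.

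**Figure D3:**
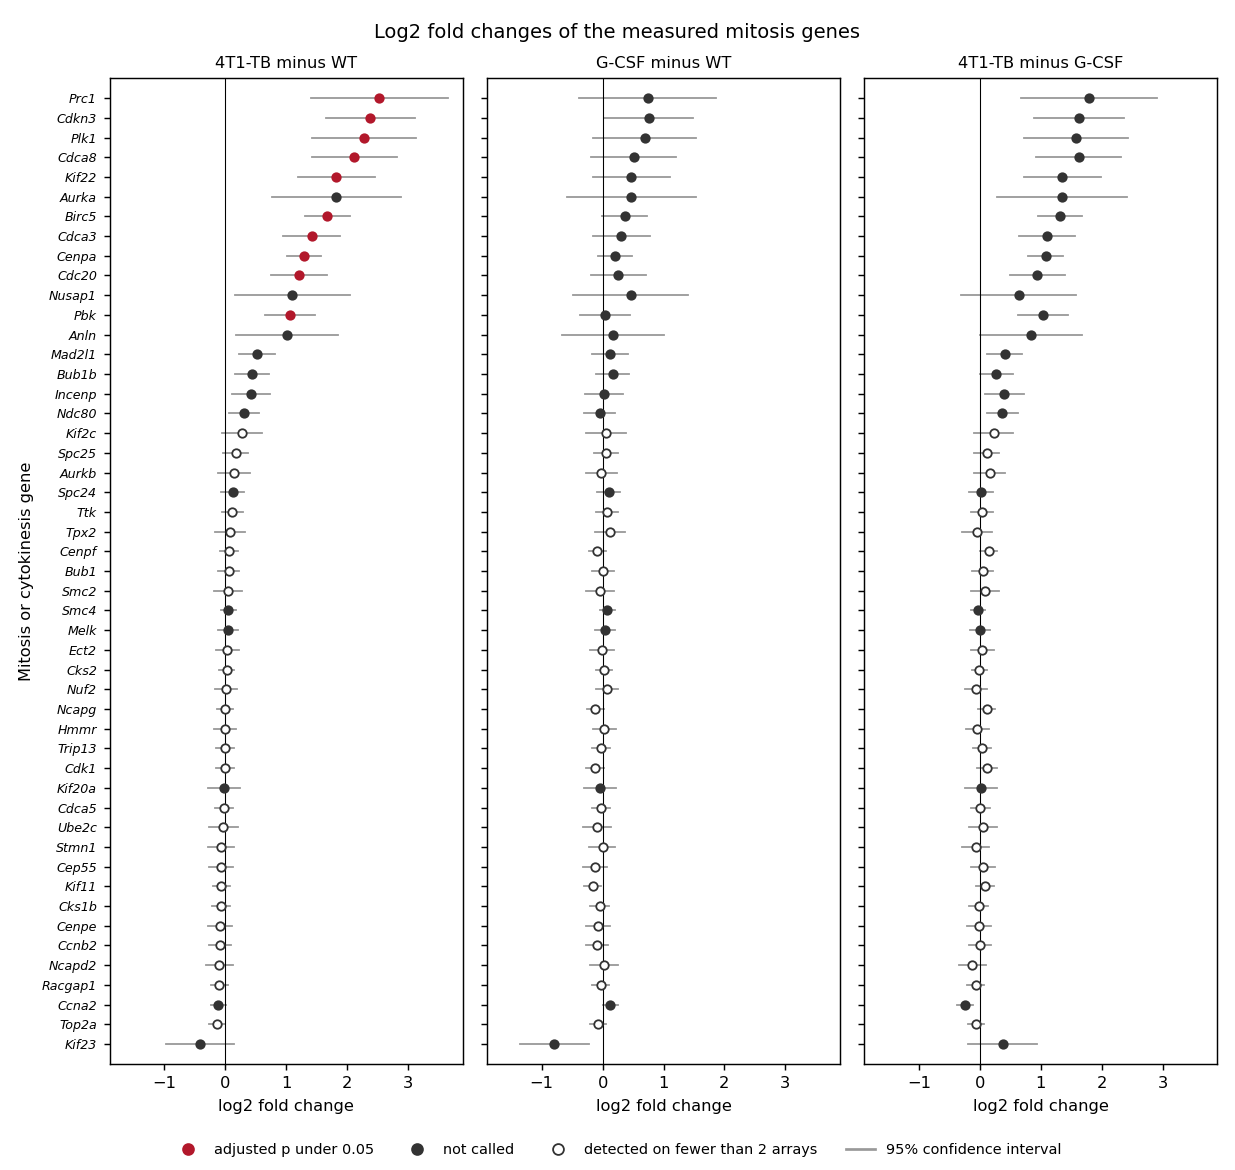
Log2 fold change (x axes) with 95% confidence interval of the 49 measured genes (y axis), for 4T1-TB minus WT, G-CSF minus WT and 4T1-TB minus G-CSF. Red points pass an adjusted p of 0.05, open points belong to genes detected on fewer than 2 arrays, and the 10 red points all lie in the first panel, between 1.06 and 2.53.

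The 19 genes detected on 0 arrays had log2 intensities between 6.72 and 7.08 on every array and log2 fold changes between -0.13 and 0.06 in 4T1-TB against WT, so a change in them was not detectable by these probes. Besides those named above, they are Kif11, the kinesin that separates spindle poles, Hmmr, Stmn1, Trip13, Cep55, Ncapg and Smc2. The 7 genes detected on 1 array (Aurkb, Cdk1, Kif2c, Ncapd2, Spc25, Tpx2 and Ttk) lay between 6.76 and 7.27, with log2 fold changes between -0.10 and 0.28 in 4T1-TB against WT. Melk, Kif20a and Smc4, detected on 2 arrays each, had 0.04, -0.02 and 0.05. A second probe of Spc25 was detected on 2 arrays and had 0.23 (adjusted p = 0.659). Probes of 1 gene also disagreed. Of the 11 genes called, 5 have 1 probe and 6 have several, and of the 9 further probes 3 were detected on 2 or more arrays. The second probe of Cdca3 also rose (0.57, adjusted p = 0.0163). A further probe of Cdc20 had 0.41 (adjusted p = 0.0981), and a further probe of Birc5 had 7.14 and 7.21 in 4T1-TB cells, 6.86 and 6.99 in G-CSF cells and 7.08 and 7.49 in WT cells (-0.11, adjusted p = 0.85). With the neqc background correction the log2 fold changes of the 11 ranged from 1.5 to 4.74. Over the 6 arrays the 11 genes followed each other closely, with Pearson's r between 0.864 and 0.998 (median 0.973) over their 55 pairs, which share arrays and normalization. As the 11 were chosen for higher values in 4T1-TB than in WT on these arrays, the choice itself favors a high r.

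The count of adjusted calls depended on single arrays. Without 4T1-TB replicate 1 or without 4T1-TB replicate 2 it was 2 (Birc5 and Cenpa), and without WT replicate 1 or without WT replicate 2 it was 1 (Cenpa), while the share of all genes that rose was 1.39%, 1.5%, 1.02% and 0.981%. The count by the 2-fold criterion also changed with the array left out. When arrays were only centred on their medians, 0 genes passed the adjusted test and 9 genes met the 2-fold criterion, with 0.105% and 5.37% of all genes higher. With only the 4 arrays of this comparison in the fit, 15 genes rose and 1 (Kif23) fell, against 11.9% and 6.03% of all genes.

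Red cell RNA was high on 4T1-TB replicate 1 and not on replicate 2. The 11 mitosis genes called were above both WT arrays on each of them. Their choice as higher in 4T1-TB than in WT on these same arrays favors that order. The intensities of the 12 erythroid genes summed to values of 26362.2 and 1534.1 in 4T1-TB cells, 12572 and 1905.1 in G-CSF cells and 2596.9 and 2423.6 in WT cells. Of the 11 mitosis genes called, 7 were higher on 4T1-TB replicate 1 than on replicate 2, 4 were lower, and their median difference from the WT mean was 1.96 on replicate 1 and 1.49 on replicate 2. Without G-CSF replicate 1 and 4T1-TB replicate 1, a setting chosen after seeing the data, 4T1-TB rests on replicate 2, with its median of 1.49. The lone arrays are then assumed to vary like the WT arrays, on 1 residual degree of freedom. The part of red cells in the mitosis gene values was not tested.
Genes of early granulocyte precursors were read on the same arrays. Fcnb, ficolin B of immature granulocytes, was at 9.81 and 9.92 in 4T1-TB cells, 7.93 and 6.96 in G-CSF cells and 7.28 and 7.09 in WT cells (log2 fold change against WT 2.68, adjusted p = 0.00888), and was the 1 gene of 8 on its list to rise by the adjusted test. Mpo, myeloperoxidase, was at 8.65 and 7.06, 7.85 and 7.15, and 6.94 and 6.76 in the same order, and thus high on the replicates that were also high in red cell RNA. The intensities of the 8 genes summed to 2382.9 and 1985.9 in 4T1-TB cells, 1293.8 and 1126.2 in G-CSF cells and 1027.3 and 1030.4 in WT cells. Elane, neutrophil elastase, stayed between 6.99 and 7.25, and Ms4a3 was not detected on any array. Cebpe, a transcription factor of the myelocyte stage, had 8.87 and 9.07 in 4T1-TB cells, 8.19 and 7.51 in G-CSF cells and 7.45 and 7.61 in WT cells (1.44, adjusted p = 0.0234). Cebpe belongs to the list of 13 granulocyte genes, of which 2 rose (Cebpe and Ltf) and 3 fell (Csf3r, Itgam and Ngp) in 4T1-TB against WT. The part of these precursors in the mitosis gene values was not tested. Of 11 measured epithelial genes, which 4T1 cells could bring, 3 were detected on 2 or more arrays. By array, 3 and 1 were detected in 4T1-TB cells, 3 and 1 in G-CSF cells and 1 and 1 in WT cells. Epcam, Krt8 and Krt18 were among those not detected on any array. By the adjusted test 0 of the 11 rose and 0 fell in 4T1-TB against WT.
Genes of monocytes and macrophages were lower than in WT in part. Of 13 measured, the adjusted test called 4 lower and 0 higher in 4T1-TB, and 4 lower and 0 higher in G-CSF, with median log2 fold changes of -0.33 and -0.35. Their intensities summed to 2015.5 and 1873.7 in 4T1-TB cells, 1783.4 and 2488.9 in G-CSF cells and 3543.2 and 3341.9 in WT cells, so both WT arrays were highest. Treml4, a receptor of the myeloid lineage, was at 7.08 and 7.16 in 4T1-TB cells, 7.12 and 7.33 in G-CSF cells and 9.38 and 9.36 in WT cells. C1qb and C1qc, chains of complement C1q, and Vcam1, an adhesion molecule, also fell in both groups. The part of these cells in the mitosis gene values was not tested.

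**Figure D4:**
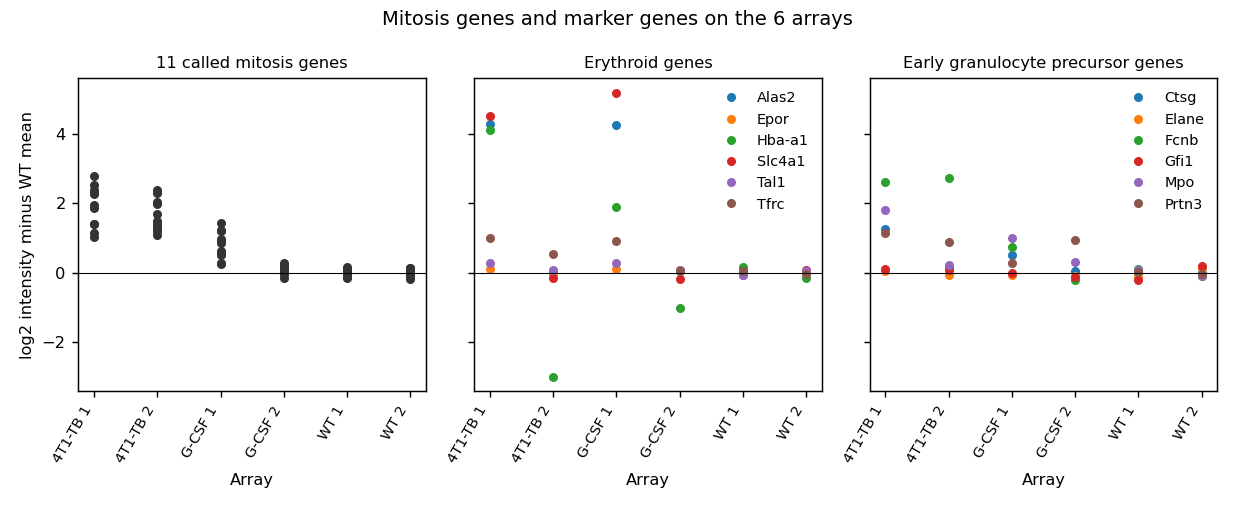
Log2 intensity minus the WT mean (y axes) on each array (x axes), for the 11 mitosis genes called (left), and for the genes detected on 2 or more arrays among 12 erythroid genes (middle) and 8 genes of early granulocyte precursors (right). The mitosis genes have medians of 1.96 and 1.49 in 4T1-TB, 0.86 and 0.08 in G-CSF and 0 on each WT array. Alas2 and Slc4a1 are high on replicate 1 of 4T1-TB and G-CSF alone.

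Between 4T1-TB and G-CSF cells the 11 genes were all higher in 4T1-TB, with no overlap of the arrays in 11 of 11. They were chosen on the same 4T1-TB arrays, so this comparison is not independent of that with WT. All 4T1-TB arrays lay above all G-CSF arrays for 22 of 49 genes, against 14.9% of all genes. The differences of the 11 ranged from 0.94 to 1.79 on the log2 scale, with a median of 1.35. None passed the adjusted test, which 0 of 49 members and 0% of all genes passed in either direction (adjusted p from 0.684 to 1 for the 11). By the 2-fold criterion 9 of 49 were higher and 0 lower, against 0.142% and 0.00525% of all genes, so that 9 of the 27 genes called higher were mitosis genes. At an unadjusted P under 0.05, 16 were higher, against 2.46% of all genes, and 1 was lower. Of 19057 genes 777 had such a P, 468 of them higher and the rest lower.
Cenpa had the smallest P of the 11, with a difference of 1.08 (95% confidence interval 0.79 to 1.36, adjusted p = 0.684). Birc5 differed by 1.31 (0.95 to 1.68, adjusted p = 0.684) and Prc1 by 1.79 (0.67 to 2.91, adjusted p = 1). Aurka and Cdc20 met 1 part of the 2-fold criterion each, with differences of 1.35 (0.29 to 2.41) and 0.94 (0.49 to 1.40), the size for Aurka and the P for Cdc20. The adjusted count rested on the G-CSF arrays. Without G-CSF replicate 1 it was 12, against 2.17% of all genes, without G-CSF replicate 2 it was 2 (Cdca3 and Cdkn3), against 0.32%, and without replicate 1 of both groups it was 14, against 2.72%. The 2-fold count was 2 (Birc5 and Pbk) without 4T1-TB replicate 1 and 4 without 4T1-TB replicate 2.

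Between G-CSF and WT cells 0 of 49 genes passed in either direction, by the adjusted test or by the 2-fold criterion. Of all genes, 4.12% rose and 2.85% fell by the adjusted test, and 2.61% rose and 2.02% fell by the 2-fold criterion. At an unadjusted P under 0.05, 2 members were higher, against 12.5% of all genes, and 2 were lower. Of 19057 genes 3627 had such a P, 2383 of them higher and the rest lower. The 11 genes had log2 fold changes between 0.04 and 0.76 (adjusted p from 0.353 to 0.966), with wide intervals, such as -0.38 to 1.86 for Prc1 and -0.16 to 1.54 for Plk1, and the 2 G-CSF arrays differed. On G-CSF replicate 1 all 11 lay above both WT arrays, with a median difference from the WT mean of 0.86 and a range from 0.23 to 1.44. On G-CSF replicate 2, 6 of 11 lay above both WT arrays, with a median of 0.08 and a range from -0.16 to 0.28. Replicate 1 is also the G-CSF array with high red cell RNA (Alas2 at 11.12, against 6.93 on replicate 2) and with Cd79b, a B cell gene, at 8.31, against 6.94. Of 8 B and plasma cell genes, 5 and 5 were detected in 4T1-TB, 3 and 0 in G-CSF and 1 and 0 in WT. Their intensities summed to 1131.9 and 1032.9, 1225.8 and 993.1, and 994.6 and 986.8 in the same order. By the adjusted test 0 of the 8 were called in either group against WT. Summed over 9 T cell genes, intensities were 2335.5 and 3159.6 in 4T1-TB, 2661.8 and 2337.2 in G-CSF and 1594.1 and 1789 in WT. By the adjusted test 0 of these 9 were called, and by the 2-fold criterion 1 rose in 4T1-TB, against 3.39% of all genes. Of 9 stem and progenitor genes, 1 rose by the adjusted test in each group, against 5.41% of all genes in 4T1-TB and 4.12% in G-CSF. The part of red cells, B cells, T cells and progenitors in the mitosis gene values was not tested. Without G-CSF replicate 2 the median log2 fold change of the 49 genes in G-CSF against WT was 0.07. Without G-CSF replicate 1 it was -0.02. The calls also changed with the array left out, and a lone array has no spread of its own.

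Further lists of cell cycle genes were compared with WT in both groups, on the same WT arrays. Of 79 further mitosis genes measured, 4T1-TB cells had 17 higher and 1 lower than WT by the adjusted test, and G-CSF cells 8 higher and 1 lower. Beside the counts of this and the next lists, 5.41% of all genes rose and 3.17% fell in 4T1-TB, and 4.12% rose and 2.85% fell in G-CSF. Mis18a, which licenses centromeres for new Cenpa, was at 9.99 and 9.87 in 4T1-TB cells, 9.88 and 9.75 in G-CSF cells and 8.53 and 8.50 in WT cells (adjusted p = 0.000942 and 0.00121 for 4T1-TB and for G-CSF against WT). Smc1a, a cohesin subunit, was at 10.11 and 10.45, 10.27 and 9.71, and 8.18 and 8.25 in the same order. The 4T1-TB and the G-CSF values both lay apart from those of WT. Cdca4 rose by 1.52 in 4T1-TB and 1.15 in G-CSF, and Kifc1, a minus-end kinesin, fell by 2.01 in 4T1-TB and fell by 2.38 in G-CSF. Of 39 genes of DNA replication 4 rose and 1 fell in 4T1-TB, and 2 rose and 1 fell in G-CSF. Rfc2, a clamp loader subunit, rose by 1.11 and 1.64, and Gins4, of the replicative helicase, by 1.33 and 1.05. Rrm1, the large subunit of ribonucleotide reductase, rose by 0.71 in 4T1-TB (adjusted p = 0.00548) and had 0.15 in G-CSF (adjusted p = 0.468). Cdc45, also of the helicase, fell by 1.38 in 4T1-TB and fell by 1.94 in G-CSF. Of 28 regulators of G1 and S phase, 4 rose and 3 fell in 4T1-TB, and 2 rose and 3 fell in G-CSF. E2f4, a repressor in the DREAM complex, rose by 1.47 and 1.26, and Cdk2, the kinase of S phase, by 2.65 and 2.22. E2f1, an activator of S phase genes, had log2 fold changes of -2.89 and -3.73, and Ccnd2, cyclin D2, of -0.57 and -0.51, and both passed in both groups. None of these lists held a gene called between 4T1-TB and G-CSF at an adjusted p under 0.05 or by the 2-fold criterion.

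Genes outside the set were ranked by Pearson's r with the mean of the 49 genes over the 6 arrays. Of 7321 genes detected on 2 or more arrays, the closest were Kif15, a spindle kinesin (r = 0.998), Troap, a spindle-associated protein (0.997), Ldhc, a lactate dehydrogenase (0.994), Kctd9 (0.991) and Kbtbd6 (0.986). Kif15 was at 8.25 and 7.88 in 4T1-TB cells, 7.41 and 6.86 in G-CSF cells and 6.86 and 6.87 in WT cells. Ldhc was at 7.83 and 7.65, 7.20 and 6.80, and 6.94 and 6.88 in the same order. These values are a description over arrays that share their normalization.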

How the data were processed

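RNA of 6 samples was hybridized to Illumina MouseWG-6 v2 arrays. The authors deposited an intensity and a detection p-value per probe, exported from GenomeStudio in a version that the sources used here do not give, and normalized log2 values. Their methods name background subtraction, a log2 transform with lumi and quantile normalization. The lowest deposited intensity per array was 85.3 to 91.8, with 0 values at or below 0, so background remains and shrinks the fold changes of dim probes. Taking log2 of the intensities and then quantile-normalizing them matched the deposited log2 values with a largest difference of 4.99e-09. The G-CSF and 4T1-TB intensity columns without a number were taken as replicate 1, since the other column of each group is numbered 2.

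A limma 3.58.1 model (R 4.3.3) with group means gave the 3 contrasts, on 3 residual and 2.59 prior degrees of freedom, with Benjamini-Hochberg adjustment over 45281 probes. Where 1 array of a group is left out, the lone array is assumed to vary like the other groups. Windows came from RefSeq (GRCm38.p6). Code was tested on simulated data. Members and gene lists were chosen with earlier results of these data known. Values on all arrays are given for members called against WT and their other detected probes. Other members are given by ranges and counts, with those of the largest levels or changes named, each further list by up to 4 genes with the smallest P, and likeness by the 5 highest r. Further members and marker genes were named after their values were seen. Having 2 arrays per group limits the precision. Alternatives were neqc (offset 16), median centring, a floor of 120, a detection filter, averaged probes, a replicate block, the 4 arrays compared, a prior with trend and robust fit, and fits without single arrays.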

Additional observations from a re-analysis of the deposited data

How the results depend on the processing

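Set against WT, 4T1-TB cells had 10 genes higher by the adjusted test. The count was 3 with neqc, 0 with median centring, 2 with a floor of 120, and 1 to 15 with 1 array left out. Of all genes, 5.41% rose by the adjusted test in the main fit. The share was 4.36% with neqc, 0.105% with median centring and 1.43% with the floor. By the 2-fold criterion 11 became 7 with a gene's probes averaged, against 1.56% of all genes. The count lower was 0, and by the adjusted test was 1 (Kif23) with the 4 arrays compared, against 6.03% of all genes. It also changed with 1 array left out. The 0 genes higher in G-CSF than in WT by the adjusted test became 1 (Ccna2) with the floor and 0 to 8 with 1 array left out, and by the 2-fold criterion 1 (Cenpa) with median centring and 0 to 4. The 0 lower in G-CSF than in WT by either rule changed only in fits that left out 1 array or the 2 arrays high in erythroid genes. Between 4T1-TB and G-CSF, the 0 by the adjusted test became 0 to 12 with 1 array left out and 14 without the 2 erythroid-high arrays, and the 9 by the 2-fold criterion became 4 with neqc, 2 with median centring, 4 with the floor, 4 with probes averaged, and 2 to 13 with 1 array left out. Of all genes, 0.226% were higher in 4T1-TB than in G-CSF by the 2-fold criterion with neqc. The share was 0.0315% with median centring, 0.0682% with the floor and 0.0735% with probes averaged, against 0.142% in the main fit. In G-CSF against WT, 1.19% of all genes rose by the adjusted test with the floor, and 6.36% by the 2-fold criterion with median centring. Counts with 1 array left out can rest on a lone array, which has no spread of its own. The cause of the shifts in counts was not tested.

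Median log2 fold changes of the 49 genes, 0.06 for 4T1-TB against WT, were 0.11 with neqc, 0.06 with median centring, 0.03 with the floor, 0.03 with probes averaged, 0.07 without the erythroid-high arrays and 0.05 to 0.09 with 1 array left out. For 4T1-TB against G-CSF, 0.09 became 0.13 with neqc, 0.03 with the floor, 0.06 with probes averaged and 0.06 to 0.11 with 1 array left out. For G-CSF against WT, 0.03 became 0.1 with neqc, 0 with probes averaged, -0.02 without the erythroid-high arrays and -0.02 to 0.07 with 1 array left out. Over the members that passed the detection filter the medians were 1.04, 0.74 and 0.17 for the 3 comparisons in this order, and these do not describe all members. No called gene changed sign under any of these settings.

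With the replicate number as a block, 4T1-TB cells had 11 genes above WT by the adjusted test and 12 by the 2-fold criterion. The shares of all genes were 4.98% and 3.39%. By the 2-fold criterion 9 were higher in 4T1-TB than in G-CSF, against 0.136% of all genes. Deviations of same-numbered arrays correlated at 0.243 for 4T1-TB with G-CSF, -0.024 for 4T1-TB with WT and 0.0234 for G-CSF with WT over 11527 probes. The labels do not tie a number to an experiment, and whether same-numbered samples shared one was not settled.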
